A study of Mus musculus with 24 samples.

Results

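The interleukin-6 family and its STAT3 axis were read in mouse thyroid tumours and normal thyroid glands through 9 genes chosen by name. They were the ligands Lif, Il6, Il11 and Osm, the receptor chains Osmr, Lifr and Il6st, the transcription factor Stat3 and its feedback inhibitor Socs3. Every probe set annotated to one of these genes was used, and 8 of the 9 genes were measured, by 18 of 22626 probe sets and among 12393 genes. Osm was not analysed here. Cytokines of this family act through receptor complexes that all contain gp130, the product of Il6st. LIF pairs gp130 with the LIF receptor and oncostatin M pairs it with the oncostatin M receptor, while IL-6 and IL-11 first bind receptor chains of their own. Janus kinases on the assembled receptor phosphorylate STAT3, which then induces Socs3, and the SOCS3 protein binds gp130 and its kinases and ends the signal. In thyroid tumours such cytokines can come from tumour cells and from the inflammatory and stromal cells around them.

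Total RNA from 24 mouse samples was hybridised to Affymetrix Mouse430A_2 arrays, on which each transcript is read by sets of short probes. The groups were 9 recurrent tumours, 5 anaplastic thyroid cancers (ATC, an undifferentiated tumour type), 4 papillary thyroid cancers (PTC, a differentiated type) and 6 pools of normal thyroid glands. By its title the series concerns how mouse ATC resists the inactivation of BRAF, a kinase of the MAPK cascade. The labels of all 4 groups give no genotype, strain, promoter, treatment, time or age, and only the titles of the pools carry the words WT (4 pools) and Cre (2 pools). A pool averages over glands, so its spread is not that of single tumours, and tumour samples are whole tissue with other cells in them. Whether the tumours came from separate animals is not stated in the labels, so the p-values measure only the spread between these samples, which may be technical.

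Levels are log2 intensities normalized by the authors, on which a difference of 1 is a 2-fold change, and they are compared between groups for the same probe set only. Medians of single arrays ran from 7.38 to 7.58, and precision is limited by how many arrays a group holds. Titles fall into those with JK (3 recurrent, 2 ATC, 4 PTC and 4 normal arrays), those with Cre (2 normal arrays) and those with a bare number (6 recurrent and 3 ATC arrays). For Gapdh the 3′ probe set minus the 5′ one, which is lower where the labelled RNA is more complete, was -0.02 to 0.17 on bare-number arrays of recurrent tumours and 0.36 to 1.07 on JK arrays of recurrent tumours, against 0.07 to 0.15 and 0.82 to 0.96 in ATC, 1.11 to 1.60 in PTC and 0.64 to 0.98 in normal pools. Braf lay between 5.62 and 7.14 on 8 of the 9 recurrent arrays, while recurrent 2 had 11.14, within the ATC range of 10.29 to 11.98. Each probe set of the 8 genes whose call in a recurrent comparison changed without recurrent 2 is given both ways. Of the 9 measured markers of thyroid follicular cells, 8 were lower in recurrent tumours, 8 in ATC and 5 in PTC than in normal pools, and 1 was higher in PTC. Over all genes, with 1 probe set each, 19.2%, 18.9% and 7.67% were lower in these groups, and 5.87% were higher in PTC.

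The promoters of the 3 measured ligand genes and of Socs3 are shown because the results turn on these transcripts and because each holds a match to one of the motifs searched. Windows of 250 bases before each annotated start were taken from RefSeq (GRCm38.p6), which gave 10 windows for all 8 measured genes. The motifs searched were TGANTCA, bound by AP-1 factors downstream of MAPK, and TTCNNNGAA, bound by STAT dimers. Both read the same on either strand and they do not overlap in these windows. Capitals mark the match in each window.
Lif, chr11:4257318-4257567, plus strand: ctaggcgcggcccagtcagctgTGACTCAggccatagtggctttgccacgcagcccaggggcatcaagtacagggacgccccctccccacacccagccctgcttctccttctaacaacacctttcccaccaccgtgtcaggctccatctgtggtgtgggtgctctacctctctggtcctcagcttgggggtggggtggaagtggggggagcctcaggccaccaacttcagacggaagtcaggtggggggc
Il6, chr5:30012864-30013113, plus strand: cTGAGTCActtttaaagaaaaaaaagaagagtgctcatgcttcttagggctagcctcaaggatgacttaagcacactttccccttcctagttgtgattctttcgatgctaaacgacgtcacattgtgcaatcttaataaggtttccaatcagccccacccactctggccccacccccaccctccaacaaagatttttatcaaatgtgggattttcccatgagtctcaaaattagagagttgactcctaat
Il11, chr7:4778142-4778391, minus strand: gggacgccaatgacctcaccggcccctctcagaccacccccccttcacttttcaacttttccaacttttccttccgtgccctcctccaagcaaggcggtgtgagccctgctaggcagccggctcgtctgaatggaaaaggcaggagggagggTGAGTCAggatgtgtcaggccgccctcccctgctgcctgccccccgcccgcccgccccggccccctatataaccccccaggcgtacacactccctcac
Socs3, chr11:117969367-117969616, minus strand: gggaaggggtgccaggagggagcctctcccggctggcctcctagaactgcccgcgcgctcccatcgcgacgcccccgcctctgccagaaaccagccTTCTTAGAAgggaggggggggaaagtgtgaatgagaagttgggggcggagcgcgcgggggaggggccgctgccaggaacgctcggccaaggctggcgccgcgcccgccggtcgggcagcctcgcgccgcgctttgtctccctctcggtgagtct
An AP-1 match began 228 bases before the start in Lif, 249 before it in Il6 and 98 before it in 1 of the 2 windows of Il11. Of the 10 windows 3 held it, while 6.75% of 32851 RefSeq windows did. A STAT match stood 154 bases before the start in Socs3, in 1 of the 10 windows, and 7.02% of all windows held one. A match describes letters only, and no binding was measured.

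Lif, a cytokine named for its effect on leukaemia cells and a keeper of stem cell states, was high in every ATC, intermediate in PTC and recurrent tumours and low in normal glands. On its brighter probe set it ran from 6.12 through a median of 7.11 to 8.48 in the 9 recurrent tumours. The 5 ATC arrays read 9.70, 9.32, 10.18, 8.84 and 9.41, and the 4 PTC arrays read 7.80, 7.39, 8.02 and 8.003. Normal pools ran from 5.11 through 5.57 to 6.09. Every tumour array thus lay above every pool, and every ATC lay above every other tumour. Of all probe sets, 0.813% separated recurrent tumours from ATC so, and 7.85% separated recurrent tumours from normal pools. The shares were 31.2% in PTC against normal pools, 30.7% in ATC against normal pools and 31% in ATC against PTC. Lif was higher in ATC than in normal glands by 3.89 ± 0.34 (difference ± SE, limma adjusted p = 3.76e-08) and higher in PTC than in normal glands by 2.21 ± 0.37 (limma adjusted p = 0.000306). Recurrent tumours exceeded normal glands by 1.68 ± 0.30 (limma adjusted p = 0.000176) and fell by 2.21 ± 0.32 relative to ATC (limma adjusted p = 0.000214). ATC exceeded PTC by 1.69 ± 0.38 (limma adjusted p = 0.00381), whereas recurrent tumours and PTC differed by -0.52 ± 0.34 (limma adjusted p = 0.295). Within the JK titles recurrent tumours fell by 1.65 relative to ATC (limma adjusted p = 0.0208), and outside them the difference was -2.49 (limma adjusted p = 0.0637). Recurrent tumours exceeded normal pools by 2.40 within JK titles (limma adjusted p = 7.03e-05), while bare-number recurrent arrays lay 1.12 above the 2 Cre pools (limma adjusted p = 0.231). The dimmer Lif probe set was higher in ATC than in normal glands by 0.46 (limma adjusted p = 0.0343), which was no longer called without normal 5 (limma adjusted p = 0.0539). With all arrays it was called in no other comparison. It differed from normal glands by 0.02 in PTC and 0.17 in recurrent tumours (limma adjusted p = 0.976 and 0.399). Recurrent tumours differed from ATC by -0.30 on it, and ATC from PTC by 0.44 (limma adjusted p = 0.344 and 0.0986). The order of groups given above is thus that of the brighter probe set. In bulk samples fewer cells of a type and less RNA per cell cannot be told apart, for Lif and for every other transcript below.

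**Figure D1:**
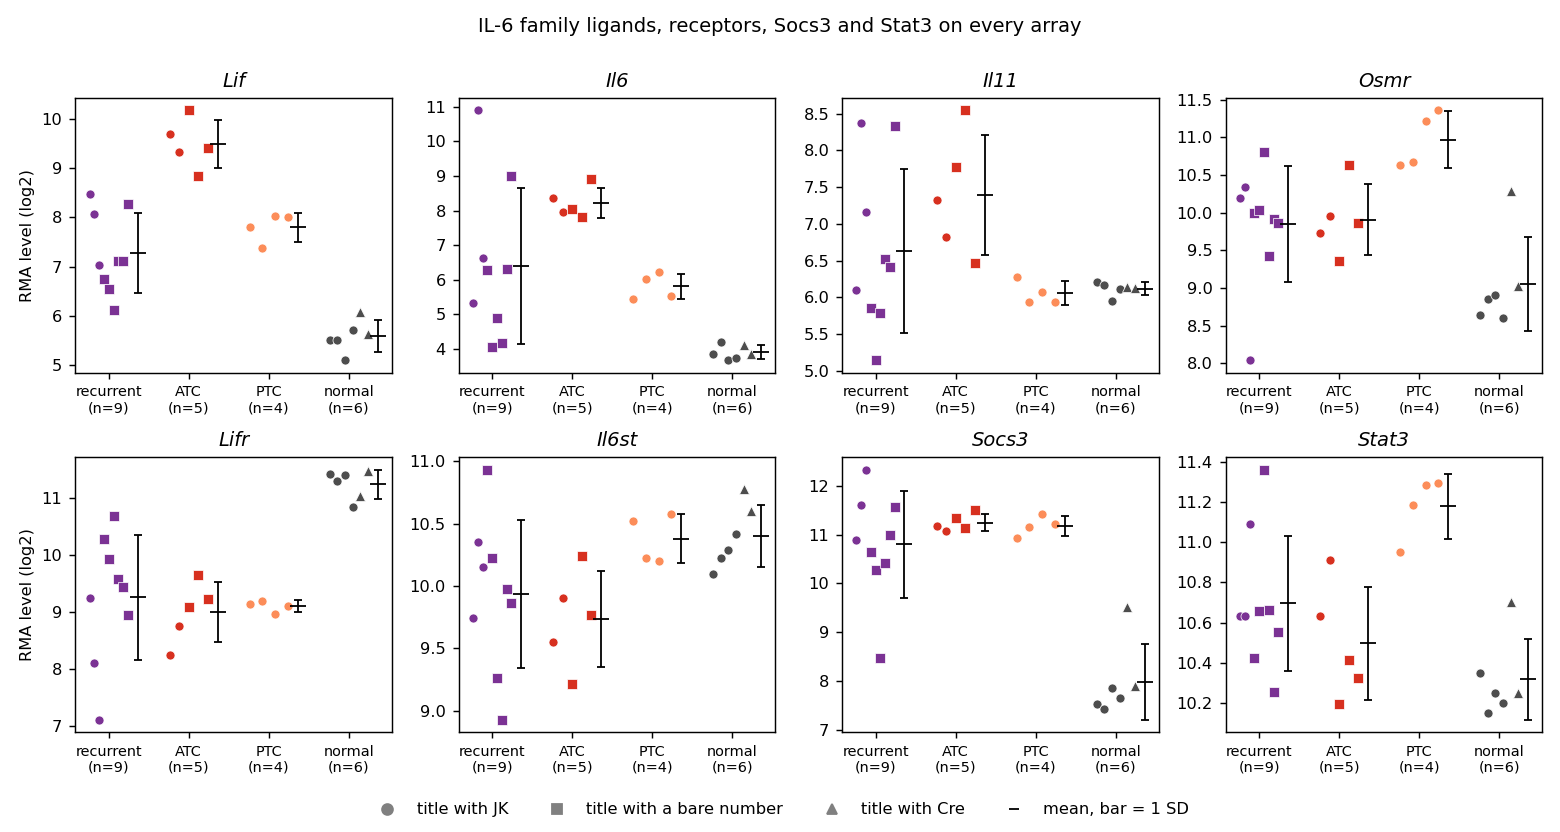
Log2 RMA level of the 8 measured genes (y axis, probe set with the highest mean) on each of the 9 recurrent, 5 ATC, 4 PTC and 6 normal arrays, with the mean and 1 SD beside each group; marker shapes give the kind of array title. Lif is highest in the 5 ATC arrays (8.84 to 10.18), Socs3 lies near 11 in ATC and PTC, and Lifr is highest in the normal pools (10.84 to 11.48).

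Il6, the founding ligand of the family, showed the widest range of any member among recurrent tumours. It ran from 4.06 through 6.28 to 10.90 in recurrent tumours. ATC arrays read 8.37, 7.96, 8.03, 7.80 and 8.92, and PTC arrays read 5.45, 6.01, 6.22 and 5.54. Normal pools stayed between 3.67 and 4.19, with a median of 3.86. All ATC and all PTC arrays stood above all pools, while recurrent 5 (4.06) and recurrent 7 (4.17) lay within the normal range. Among all probe sets, 30.7% separated ATC from the pools, 31.2% separated PTC from the pools and 31% separated ATC from PTC. Il6 was higher in ATC than in normal glands by 4.31 ± 0.83 (limma adjusted p = 0.000406) and in recurrent tumours than in normal glands by 2.49 ± 0.72 (limma adjusted p = 0.0108). PTC lay 1.90 ± 0.89 above normal glands, which limma did not call with the spread shared by the 4 groups (adjusted p = 0.189) although PTC and normal arrays fitted without the others gave a call (limma adjusted p = 6.87e-06), as did array weights (adjusted p = 8.32e-05). ATC lay 2.41 ± 0.92 above PTC without overlap (limma adjusted p = 0.0752), which was called with those 2 groups alone (adjusted p = 0.000137) and with array weights (adjusted p = 7.7e-05). The difference of recurrent tumours from ATC was -1.82 ± 0.77 with all arrays (limma adjusted p = 0.225) and was called with array weights (adjusted p = 0.0476). Recurrent 2, whose Braf level was that of ATC, held the highest Il6 (10.90). Without it, Il6 fell by 2.38 in recurrent tumours relative to ATC, which was called (limma adjusted p = 0.0112), and its excess over normal glands was 1.93 (limma adjusted p = 0.00673). Within JK titles, where recurrent 2 is 1 of 3 recurrent arrays, recurrent tumours exceeded normal pools by 3.75 (limma adjusted p = 0.00769). Bare-number recurrent arrays lay 1.80 above the Cre pools (limma adjusted p = 0.385), and bare-number ATC arrays 4.26 above them (limma adjusted p = 0.0649), against 4.30 within JK titles (limma adjusted p = 0.00975).

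Il11, the third ligand, lay near the normal level in PTC and above it in ATC and in part of the recurrent arrays. Levels ran from 5.15 through 6.41 to 8.37 in recurrent tumours, and were 7.33, 6.82, 7.78, 8.55 and 6.47 in ATC. PTC arrays read 6.28, 5.93, 6.08 and 5.94, and the pools ran from 5.95 through 6.14 to 6.21. The 5 ATC arrays all exceeded the pools, whereas recurrent arrays lay on both sides of them. ATC and pools were separate on 30.7% of all probe sets. Il11 was higher in ATC than in normal glands by 1.27 ± 0.46 (limma adjusted p = 0.0386). This call was lost without any 1 of normal 1 to 6 or of ATC 1, 3 and 4 (limma adjusted p up to 0.128, without ATC 4). It was also lost with title kind as a block (1.49, limma adjusted p = 0.0636). ATC lay 0.97 above the pools within JK titles (limma adjusted p = 0.127) and 1.46 above the Cre pools outside them (limma adjusted p = 0.302). PTC differed from normal glands by -0.06 ± 0.49 (limma adjusted p = 0.976), and recurrent tumours by 0.51 ± 0.40 (limma adjusted p = 0.356). Within JK titles, where recurrent 2 is 1 of the 3 recurrent arrays, recurrent tumours exceeded the pools by 1.10 and PTC by 1.15, and both were called (limma adjusted p = 0.0404 and 0.0421), whereas bare-number recurrent arrays lay 0.21 above the Cre pools (limma adjusted p = 0.9). ATC lay 1.33 ± 0.51 above PTC (limma adjusted p = 0.0765), which was called with those 2 groups alone (adjusted p = 0.0191) and with array weights (adjusted p = 0.00314). The highest recurrent levels were those of recurrent 2 (8.37) and recurrent 9 (8.33), which also had the highest recurrent Il6 (10.90 and 8.99).

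Markers of cells that can supply these cytokines differed between the groups. Of 8 macrophage markers, 5 were higher in recurrent tumours, 7 in ATC and 0 in PTC than in normal pools, and the counts were 6, 7 and 2 without normal 5 and 7 in recurrent tumours without recurrent 2. Over all genes, with 1 probe set each, 14.4% were higher and 19.2% lower in recurrent tumours than in normal pools. These shares were 14.9% and 18.9% in ATC and 5.87% and 7.67% in PTC. The mean macrophage level after each gene was centred ran from -2.02 to 1.71 in recurrent tumours, from 0.53 to 1.32 in ATC, from -0.69 to 0.16 in PTC and from -1.76 to -0.21 in normal pools. Of 10 fibroblast markers, 6 were higher in recurrent tumours, 6 in ATC and 2 in PTC than in normal pools, with ranges of -1.27 to 1.29, 0.31 to 1.29, -0.79 to 0.39 and -1.17 to -0.72 in recurrent tumours, ATC, PTC and normal pools. Of 5 measured neutrophil markers, 2 were higher in recurrent tumours, 2 in ATC and 0 in PTC, and their centred mean was 3.69 on recurrent 2, against -1.69 to 1.26 on the other recurrent arrays. Recurrent 2, with the highest recurrent Il6 and Il11, had this neutrophil mean of 3.69, the lowest fibroblast mean of the 24 arrays (-1.27) and a macrophage mean of -0.44. The ATC range of the neutrophil mean was 0.06 to 1.04, that of PTC -0.74 to -0.03 and that of normal pools -1.39 to -0.89. Of 7 epithelial markers, 5 were lower in recurrent tumours and 2 higher in ATC than in normal pools, and limma called 0 in PTC, where 1 had an unadjusted p under 0.05. Between tumours 5 were lower in recurrent tumours than in ATC and 6 than in PTC, with centred means of -3.10 to 0.27 in recurrent tumours, -0.51 to 1.87 in ATC, 0.94 to 1.32 in PTC and 0.21 to 1.31 in normal pools. Over all genes 2.95% were lower in recurrent tumours than in ATC and 12.4% than in PTC. The epithelial mean of -0.51 was that of ATC 4, against 1.35 to 1.87 on the other ATC arrays. Its thyroid follicular mean was 0.33, against -1.93 to -1.51 on the others. ATC 4 had the lowest Lif (8.84) and the highest Il11 (8.55) of the ATC arrays. Relative to normal pools, B cell markers were lower for 1 of 4 genes in recurrent tumours and 1 in ATC, and T cell markers for 1 of 6 in ATC. Adipocyte markers were lower than in normal pools for 5 of 5 measured genes in recurrent tumours, 5 in ATC and 4 in PTC, parathyroid and C cell markers for 3 of 3, 3 and 2, and endothelial markers for 3 of 6, 1 and 2. Skeletal muscle markers gave 0 calls by limma of 6 in each comparison with normal pools, and 1 gene in recurrent tumours, 0 in ATC and 0 in PTC had an unadjusted p under 0.05. RMA levels have no true zero, so no marker is listed at 0, and the part of these cells in the ligand levels was not tested.

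The receptor chains went different ways. Osmr, the signalling chain for oncostatin M, had its highest mean in PTC on its brighter probe set. It ran from 8.04 through 9.99 to 10.80 in recurrent tumours, and read 9.73, 9.96, 9.35, 10.64 and 9.86 in ATC. PTC arrays read 10.63, 10.67, 11.22 and 11.36, and pools ran from 8.60 through 8.88 to 10.28. All 4 PTC arrays exceeded all 6 pools, although normal 5, a Cre pool, stood at 10.28 while the other 5 pools reached at most 9.03. PTC and pools were separate on 31.2% of all probe sets. Osmr was higher in PTC than in normal glands by 1.92 ± 0.39 (limma adjusted p = 0.00202). ATC lay 0.85 ± 0.37 above normal glands with all arrays (limma adjusted p = 0.0802) and 1.10 above them without normal 5, which was called (limma adjusted p = 0.019). Recurrent tumours lay 0.79 above them with all arrays (limma adjusted p = 0.0609) and 1.04 without normal 5 (limma adjusted p = 0.0129). Both differences were also called with array weights and with the mean of probe sets, the ATC one with the 2 groups alone (limma adjusted p = 0.035), and the recurrent one without recurrent 3 (1.02, limma adjusted p = 0.00312) and with the filter on dim probe sets (limma adjusted p = 0.0493). ATC differed from PTC by -1.06 ± 0.41 (limma adjusted p = 0.0752), which was called with those 2 groups alone (adjusted p = 0.0108), with quantile normalization again (adjusted p = 0.042) and with array weights (adjusted p = 0.000231). Osmr was lower in recurrent tumours than in PTC on this probe set, by -1.12 ± 0.36 (limma adjusted p = 0.0289), a call lost without PTC 3 (limma adjusted p = 0.0933) or PTC 4 (limma adjusted p = 0.101). This call was also lost with those 2 groups alone (limma adjusted p = 0.0761) and with the mean of probe sets (-0.35, limma adjusted p = 0.352). The dimmer Osmr probe set differed there by 0.42 in the other direction (limma adjusted p = 0.252), and it was higher in recurrent tumours than in normal glands by 0.93 (limma adjusted p = 0.00276).

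Lifr, the receptor chain that LIF needs beside gp130, was lower in all 3 kinds of tumour than in normal glands. Its brightest probe set ran from 7.11 through 9.45 to 10.69 in recurrent tumours. ATC arrays read 8.24, 8.76, 9.10, 9.65 and 9.23, PTC arrays read 9.14, 9.20, 8.96 and 9.11, and the pools ran from 10.84 through 11.36 to 11.48. No tumour array reached the lowest pool. Among all probe sets, 7.85% separated recurrent tumours, 30.7% separated ATC and 31.2% separated PTC from the pools. Relative to normal glands Lifr differed by -1.99 ± 0.38 in recurrent tumours (limma adjusted p = 0.000307), by -2.25 ± 0.43 in ATC (limma adjusted p = 0.00037) and by -2.14 ± 0.46 in PTC (limma adjusted p = 0.00308). The second Lifr probe set differed by -2.19 in recurrent tumours, by -2.60 in ATC and by -2.92 in PTC (limma adjusted p = 3.29e-07, 2.79e-07 and 3.5e-07), and the third by -0.41 in recurrent tumours and -0.76 in ATC (limma adjusted p = 0.0415 and 0.00196). In PTC the third differed by -0.51 (limma adjusted p = 0.0794), or by -0.595 without normal 5, which was called (limma adjusted p = 0.0382). On the second set recurrent tumours were higher than PTC by 0.74 (limma adjusted p = 0.0479), which was lost without recurrent 2 (limma adjusted p = 0.0559). Lif was highest in ATC, and the chain it binds was lower there than in normal glands. Within JK titles Lifr fell by 3.09 in recurrent tumours (limma adjusted p = 5.73e-05), and bare-number recurrent arrays differed from the Cre pools by -1.44 (limma adjusted p = 0.0642). Between tumour groups no difference was called on the brightest probe set, with values of -0.11 ± 0.48 between ATC and PTC and 0.26 ± 0.40 between recurrent tumours and ATC (limma adjusted p = 0.911 and 0.799).

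Il6st, the gp130 chain shared by the whole family, was not called between any groups on its brightest probe set with all arrays fitted together, and was lower in ATC under several other settings. Levels ran from 8.93 through 9.98 to 10.93 in recurrent tumours, and were 9.56, 9.90, 9.21, 10.24 and 9.77 in ATC. PTC arrays read 10.52, 10.23, 10.20 and 10.58, and pools ran from 10.10 through 10.35 to 10.78. The groups overlapped, and the difference from normal glands was -0.46 ± 0.22 in recurrent tumours, -0.67 ± 0.26 in ATC and -0.02 ± 0.28 in PTC (limma adjusted p = 0.122, 0.0532 and 0.985). The difference between ATC and normal glands was called without ATC 4 (-0.79, limma adjusted p = 0.0315), in ATC and normal arrays fitted alone (limma adjusted p = 0.00922), with array weights (adjusted p = 0.00166), with the filter on dim probe sets (adjusted p = 0.0444), with quantile normalization again (adjusted p = 0.0406) and with centring on array medians (adjusted p = 0.0403). ATC and PTC differed by -0.65 ± 0.29 with all arrays (limma adjusted p = 0.128), and this was called with those 2 groups alone (adjusted p = 0.0297), within JK titles (adjusted p = 0.0455) and with array weights (adjusted p = 0.00133). Without recurrent 4 the difference of recurrent tumours from normal glands was -0.59 and was called (limma adjusted p = 0.029). The other Il6st probe sets gave differing answers. One was higher in recurrent tumours than in normal glands by 0.87 (limma adjusted p = 0.0309; without normal 5 it was 0.79, limma adjusted p = 0.0689) and than in PTC by 0.98 (limma adjusted p = 0.0435), and its name ends in _s_at, a suffix for probes shared between transcripts. On it bare-number arrays of recurrent tumours read 6.47 to 8.31 and JK arrays of recurrent tumours 5.75 to 6.72, and bare-number ATC arrays read 6.36 to 7.27 and JK ATC arrays 5.66 to 5.78. These bare-number arrays also had the low Gapdh 3′ minus 5′ values given above, and the part of array series in this signal was not tested. The dimmest Il6st probe set was lower in ATC than in PTC by -0.85 ± 0.17 (limma adjusted p = 0.00172), at 4.96 to 5.37 in ATC and 5.93 to 6.27 in PTC. Without recurrent 2 it was also lower in recurrent tumours than in PTC, by -0.45 (limma adjusted p = 0.0474, against 0.0527 with that array).

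Stat3, the transcription factor that the receptors activate, had its highest mean in PTC. Its brightest probe set ran from 10.25 through 10.63 to 11.36 in recurrent tumours, and read 10.63, 10.91, 10.20, 10.42 and 10.32 in ATC. PTC arrays read 10.95, 11.19, 11.29 and 11.30, and pools ran from 10.15 through 10.25 to 10.70. Each PTC array lay above each ATC array and each pool. PTC was separate from ATC on 31% of all probe sets and from the pools on 31.2%. Stat3 was higher in PTC than in normal glands by 0.86 ± 0.18 (limma adjusted p = 0.00261). It was lower in ATC than in PTC by -0.68 ± 0.19 (limma adjusted p = 0.0144) and in recurrent tumours than in PTC by -0.48 ± 0.17 (limma adjusted p = 0.042). Both of these calls were lost within JK titles (-0.41 and -0.39, limma adjusted p = 0.146 and 0.0684) and with title kind as a block (-0.53 and -0.31, limma adjusted p = 0.0793 and 0.264). With the mean of probe sets both were lost too (-0.42 and -0.23, limma adjusted p = 0.0755 and 0.278). A fit of the 2 groups alone lost the recurrent call (limma adjusted p = 0.117). The recurrent call was also lost without any 1 of PTC 2, 3 and 4 or recurrent 1, 2, 4, 5, 7, 8 and 9 (limma adjusted p up to 0.121). ATC and normal glands differed by 0.18 ± 0.17 (limma adjusted p = 0.461), while within JK titles ATC lay 0.54 above the pools, which was called (limma adjusted p = 0.0333), and outside them the difference from the Cre pools was -0.17 (limma adjusted p = 0.763). Recurrent tumours lay 0.38 above normal glands (limma adjusted p = 0.0529), and 0.46 above them without normal 5, which was called (limma adjusted p = 0.0263). This difference was also called with title kind as a block (0.63, limma adjusted p = 0.0153), within JK titles (0.55, limma adjusted p = 0.0124), with the filter on dim probe sets (adjusted p = 0.0469), with the mean of probe sets (adjusted p = 0.0219), and without recurrent 4 (adjusted p = 0.0401) or recurrent 8 (adjusted p = 0.0269). Outside JK titles it was 0.17 (limma adjusted p = 0.739). Another Stat3 probe set was higher in PTC by 0.87 (limma adjusted p = 0.00334) and in recurrent tumours by 0.58 (limma adjusted p = 0.00585), each relative to normal glands. On that set ATC differed from PTC by -0.61 (limma adjusted p = 0.0334) and recurrent tumours from PTC by -0.29, which was not called (limma adjusted p = 0.251). The messenger level says nothing of STAT3 phosphorylation, which arrays do not read.

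Socs3, the feedback inhibitor that STAT3 induces, was high in all 3 kinds of tumour. It ran from 8.47 through 10.88 to 12.33 in recurrent tumours. ATC arrays read 11.18, 11.07, 11.34, 11.13 and 11.503, and PTC arrays read 10.93, 11.16, 11.43 and 11.21. Pools ran from 7.42 through 7.75 to 9.51. All ATC and PTC arrays lay above all pools, and recurrent 6 (8.47) was the only tumour array within the range of the pools. Among all probe sets, 30.7% separated ATC and 31.2% separated PTC from the pools. Socs3 was higher than in normal glands by 2.82 ± 0.40 in recurrent tumours, by 3.27 ± 0.46 in ATC and by 3.21 ± 0.49 in PTC (limma adjusted p = 1.41e-05, 1.37e-05 and 0.000132). All 3 of its probe sets were called in each of these comparisons, with differences of 2.19 to 3.12 in recurrent tumours, 2.52 to 3.65 in ATC and 2.49 to 3.21 in PTC, and 1 of them carries no suffix for shared probes. Normal 5, the highest pool, also had the highest macrophage mean of the pools (-0.21, against -1.76 to -1.38 on the other 5). Within JK titles recurrent tumours exceeded normal pools by 3.995 (limma adjusted p = 9.02e-07), ATC by 3.51 (limma adjusted p = 1.08e-05) and PTC by 3.57 (limma adjusted p = 2.44e-06). Outside them the differences from the Cre pools were 1.69 in recurrent tumours and 2.62 in ATC (limma adjusted p = 0.186 and 0.0669). Socs3 differed by 0.06 ± 0.51 between ATC and PTC and by -0.45 ± 0.42 between recurrent tumours and ATC (limma adjusted p = 0.953 and 0.657). Lif separated ATC from PTC and from recurrent tumours, and no such separation was called for Socs3.

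**Figure D2:**
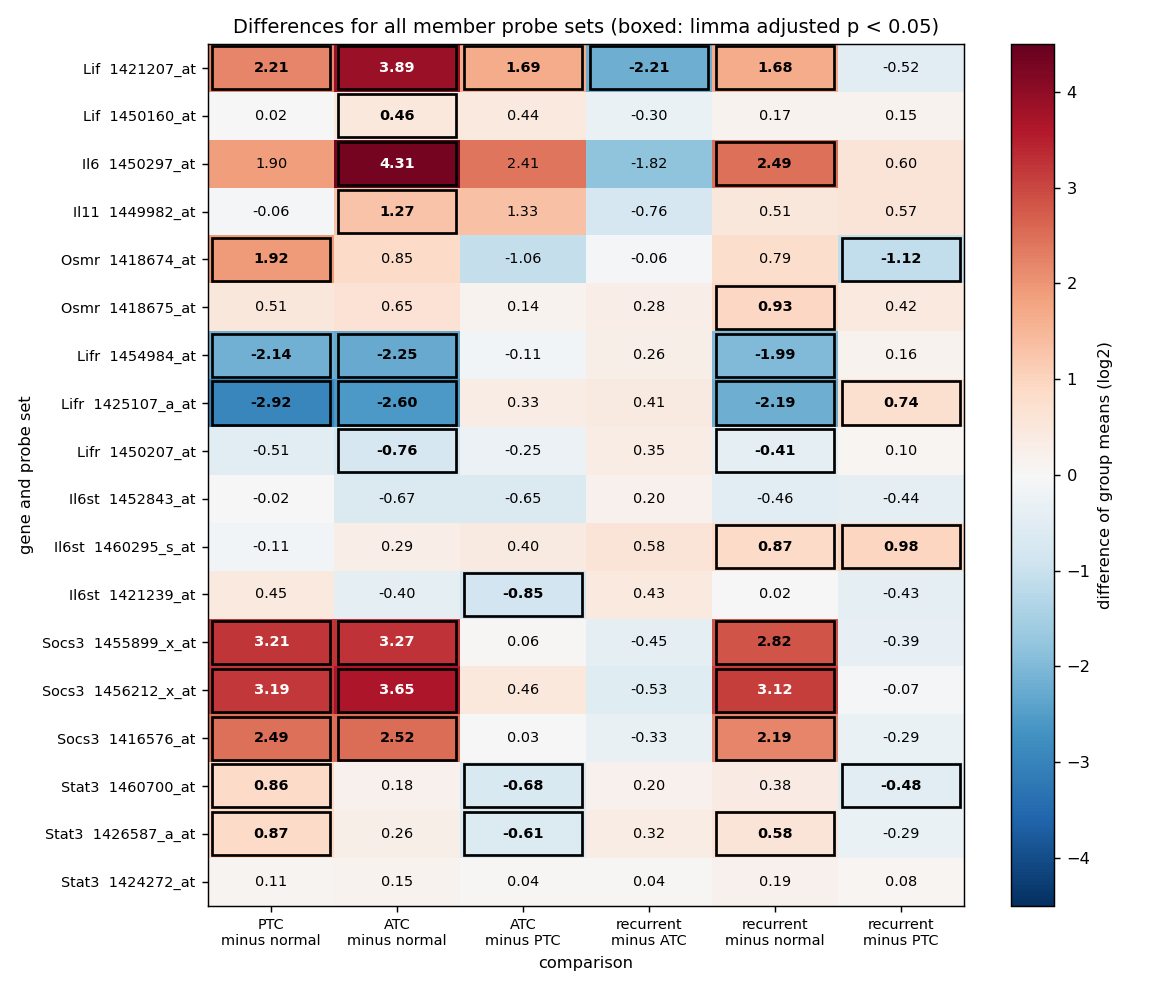
Differences of group means (log2, colour scale and printed values) for the 18 probe sets of the 8 measured genes (rows) in 6 comparisons (columns), with a box around each limma adjusted p under 0.05. Socs3 is boxed for all 3 probe sets in each comparison with normal glands, and only Lif is boxed between recurrent tumours and ATC.

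A member was counted as called where at least 1 of its probe sets passed the adjusted threshold of 0.05. This rule favours genes with more probe sets, and the 8 members had 18 while all 12393 genes shared 20380. In PTC against normal glands 5 of 8 members were called, while 15.7% of all genes were. They were Lif, Osmr, Socs3 and Stat3 upwards and Lifr downwards, and the same 5 were called without normal 5, when 15.8% of all genes were. In ATC against normal glands 5 of 8 were called, with 38.8% of all genes, namely Lif, Il6, Il11 and Socs3 upwards and Lifr downwards; without normal 5 there were also 5, with Osmr in place of Il11 and 37.5% of all genes called. The count was 7 of 8 in recurrent tumours against normal glands, where 39.9% of all genes were called, and Il11 was the exception. On their brightest probe sets only Lif, Il6 and Socs3 rose and Lifr fell, where 14.4% of all genes rose and 19.2% fell. Osmr, Stat3 and Il6st were called upwards on other probe sets alone, and the brightest Il6st set differed by -0.46. The count was 7 of 8 without recurrent 2 (39.7% of all genes) and 6 of 8, without Il6st, when normal 5 was left out (37.7%). These 3 comparisons share the same 6 pools. Between tumours the counts were smaller, at 3 of 8 in ATC against PTC (22.4% of all genes), 1 of 8 in recurrent tumours against ATC (4.73%) and 4 of 8 in recurrent tumours against PTC (29.3%). The last of these, against PTC, took in Osmr and Stat3 downwards. It also took in Il6st and Lifr upwards, on probe sets other than their brightest. This count ran from 0 to 4 when single arrays were left out, and was 2 of 8 without recurrent 2, when 30.6% of all genes were called. Without recurrent 2 the count against ATC was 2 of 8, Lif and Il6, with 7.57% of all genes called. Groups that did not overlap were seen for 31.2% of probe sets in PTC against normal glands, 30.7% in ATC against normal glands, 31% in ATC against PTC, 7.85% in recurrent tumours against normal glands and 10.1% in recurrent tumours against PTC, so separate groups alone are common where both are small.

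Related ligands and receptors outside the chosen genes were measured for 7 of 11 listed. Against normal glands 0 rose and 2 fell in recurrent tumours, 2 rose and 1 fell in ATC, and limma called 0 in PTC, where 2 had an unadjusted p under 0.05. Over all genes 14.4% rose and 19.2% fell in recurrent tumours, 14.9% and 18.9% in ATC and 5.87% and 7.67% in PTC. The list's median difference was 0.11 in recurrent tumours, 0.22 in ATC and 0.17 in PTC, beside -0.03, -0.08 and -0.01 over all genes. Clcf1, a ligand that signals through gp130 and the LIF receptor with the ciliary neurotrophic factor receptor, read 7.72, 9.44, 8.94, 6.66, 6.57, 5.69, 5.91, 8.13 and 8.97 in recurrent tumours 1 to 9 and 9.91, 9.56, 9.35, 10.35 and 10.13 in ATC. It read 8.32, 8.80, 8.96 and 8.98 in PTC and 7.12 to 7.73 in normal pools. Every ATC array lay above every PTC array and every pool, as on 31% and 30.7% of all probe sets. Clcf1 was higher in ATC than in normal glands by 2.54 ± 0.53 (limma adjusted p = 0.000818). Relative to ATC it fell by 2.30 ± 0.49 in recurrent tumours (limma adjusted p = 0.00833), and all 3 of its probe sets were called in the same direction in both comparisons. This second call was lost in a fit of the 2 groups alone (limma adjusted p = 0.131), within JK titles (-1.04, limma adjusted p = 0.141) and outside them (-2.95, limma adjusted p = 0.146). Ctf1, which encodes the gp130 ligand cardiotrophin 1, was lower than in normal glands, by -1.10 in recurrent tumours and by -1.89 in ATC (limma adjusted p = 0.00662 and 0.000215).

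For most Janus kinases, other STAT genes and their regulators no difference from normal glands was called. Of 25 measured, 3 rose and 7 fell in recurrent tumours, 3 rose and 3 fell in ATC, and 3 rose and 0 fell in PTC, relative to normal glands. The median differences were -0.10, -0.03 and -0.10 in recurrent tumours, ATC and PTC. Without recurrent 2, 3 rose and 6 fell in recurrent tumours relative to normal glands. Over all genes, with 1 probe set each, 14.4% rose and 19.2% fell in recurrent tumours, 14.9% and 18.9% in ATC and 5.87% and 7.67% in PTC, against normal glands. Between tumours 1.01% rose and 2.95% fell in recurrent tumours against ATC, 9.88% and 12.4% in recurrent tumours against PTC and 7.88% and 9.45% in ATC against PTC. Jak2, one of the gp130 kinases, fell by 1.14 ± 0.17 in recurrent tumours (limma adjusted p = 2.16e-05), and Cish, a feedback gene of STAT5, fell by 1.44 ± 0.26 (limma adjusted p = 0.000165), both relative to normal glands. Ptpn2, a phosphatase of Janus kinases and STAT proteins, was higher in PTC than in normal glands by 1.2998 (limma adjusted p = 0.00526) and lower than in PTC by -1.74 in recurrent tumours and -1.34 in ATC (limma adjusted p = 0.000102 and 0.00461). Socs2, a feedback gene of growth hormone signalling, was lower in recurrent tumours than in ATC by -2.14 ± 0.37 (limma adjusted p = 0.00145), with non-overlapping groups, which 0.813% of probe sets had in that comparison. Between tumours the list gave 0 rises and 2 falls in recurrent tumours against ATC, 2 and 6 in recurrent tumours against PTC and 2 and 4 in ATC against PTC, and without recurrent 2 it gave 1 and 2 against ATC and 3 and 6 against PTC.

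Among genes known to respond to STAT3 or to the family's ligands more rose than fell in each kind of tumour. Of 22 measured, 12 rose and 3 fell in recurrent tumours, 13 rose and 2 fell in ATC and 11 rose and 1 fell in PTC relative to normal glands. Without normal 5 the counts were 11 and 3 in recurrent tumours, 13 and 1 in ATC and 12 and 1 in PTC, and without recurrent 2 they were 12 and 3 in recurrent tumours. Their median difference was 0.96 in recurrent tumours, 1.37 in ATC and 0.94 in PTC, beside the medians near 0 of all genes given above. Shares of all genes that rose and fell were 14.4% and 19.2%, 14.9% and 18.9%, and 5.87% and 7.67%, in that order. Timp1, an inhibitor of matrix metalloproteinases, was higher by 5.21 ± 0.50 in recurrent tumours, 6.42 ± 0.58 in ATC and 3.97 ± 0.62 in PTC (limma adjusted p = 8.25e-08, 4.6e-08 and 0.000148). Junb, an AP-1 subunit, was higher by 1.88 in recurrent tumours, 2.93 in ATC and 2.24 in PTC (limma adjusted p = 0.000195, 6.5e-06 and 0.000818). Ccnd1, the G1 cyclin D1, was higher in ATC by 2.94 and in PTC by 3.41 (limma adjusted p = 5.31e-07 and 5.45e-07). Several of these genes, Junb and Ccnd1 among them, also respond to MAPK. Vegfa, an endothelial growth factor, went the other way and fell by 2.34 in recurrent tumours relative to normal glands (limma adjusted p = 0.000132). Icam1, an adhesion molecule, was lower than in PTC by -3.79 in recurrent tumours and by -3.07 in ATC (limma adjusted p = 5.3e-06 and 0.000339). In recurrent tumours against ATC 0 of the 22 rose and 3 fell, in recurrent tumours against PTC 1 rose and 6 fell, and in ATC against PTC 2 rose and 2 fell. Without recurrent 2, 4 fell against ATC. The medians of these 3 comparisons were -0.28, 0.003 and 0.31. For this list and those below, the shares of all genes between tumours are those given with the Janus kinases.

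Acute phase genes, which IL-6 induces in liver, showed no common direction. Of 17 measured, 4 rose and 3 fell in recurrent tumours, 4 rose and 3 fell in ATC and 3 rose and 2 fell in PTC relative to normal glands, with medians of 0.18, -0.07 and 0.04. Without recurrent 2, 3 rose and 3 fell in recurrent tumours. Over all genes 14.4% rose and 19.2% fell in recurrent tumours, 14.9% and 18.9% in ATC and 5.87% and 7.67% in PTC. Lcn2, a siderophore-binding protein, was higher in PTC than in normal glands by 5.90 ± 1.09 (limma adjusted p = 0.000827) and lower in recurrent tumours than in PTC by -3.53 ± 1.01 (limma adjusted p = 0.0146). It exceeded normal glands in recurrent tumours (2.37, limma adjusted p = 0.0444) and ATC (2.96, limma adjusted p = 0.0304). Bare-number recurrent and ATC arrays alone differed from the Cre pools by -0.73 and -0.92, and neither was called. Without recurrent 2 the excess of recurrent tumours over normal glands was 2.23 (limma adjusted p = 0.0698). Cp, the copper carrier ceruloplasmin, was lower than in PTC by -2.46 in recurrent tumours and by -3.28 in ATC (limma adjusted p = 0.000192 and 4.21e-05). Serpina3n, a protease inhibitor, was higher than in normal glands by 3.10 in recurrent tumours and by 4.005 in ATC (limma adjusted p = 0.00251 and 0.000923). Against PTC 1 rose and 4 fell in recurrent tumours, and 0 rose and 1 fell in ATC. In recurrent tumours against ATC limma called 0 of 17, and 4 had an unadjusted p under 0.05.

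Inflammatory cytokines and Ptgs2 were the list with the largest share of rises in ATC among the 5. Of 13 measured, 7 rose in recurrent tumours, 9 in ATC and 3 in PTC relative to normal glands, and 0 fell in each. Without normal 5 these counts were 8, 10 and 4, and 6 rose in recurrent tumours without recurrent 2. Median differences were 1.60 in recurrent tumours, 2.25 in ATC and 1.19 in PTC. Of all genes 14.4% rose in recurrent tumours, 14.9% in ATC and 5.87% in PTC, relative to normal glands. Ptgs2, the inducible cyclooxygenase, was higher by 4.74 ± 0.75 in recurrent tumours and by 6.16 ± 0.87 in ATC (limma adjusted p = 5.19e-05 and 1.37e-05), and it was higher in ATC than in PTC by 3.80 (limma adjusted p = 0.00822). Csf2, which encodes the growth factor GM-CSF, was higher in ATC than in normal glands by 4.10 ± 0.71 (limma adjusted p = 0.000129) and lower in recurrent tumours than in ATC by -3.85 ± 0.65 (limma adjusted p = 0.00119), as was Il1a by -1.86 ± 0.26 (limma adjusted p = 0.000136). Within JK titles neither of these last 2 was called (-2.37 and -1.05, limma adjusted p = 0.152 and 0.0826). In recurrent tumours against ATC 0 of the 13 rose and 2 fell, or 5 fell without recurrent 2, when the median was -0.86 and not -0.52. In recurrent tumours against PTC 1 rose and 2 fell, with a median of 0.25 (-0.12 without recurrent 2), and in ATC against PTC 2 rose and 0 fell. Counts of macrophage markers are given above, and their part in the levels of this list was not tested.

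**Figure D3:**
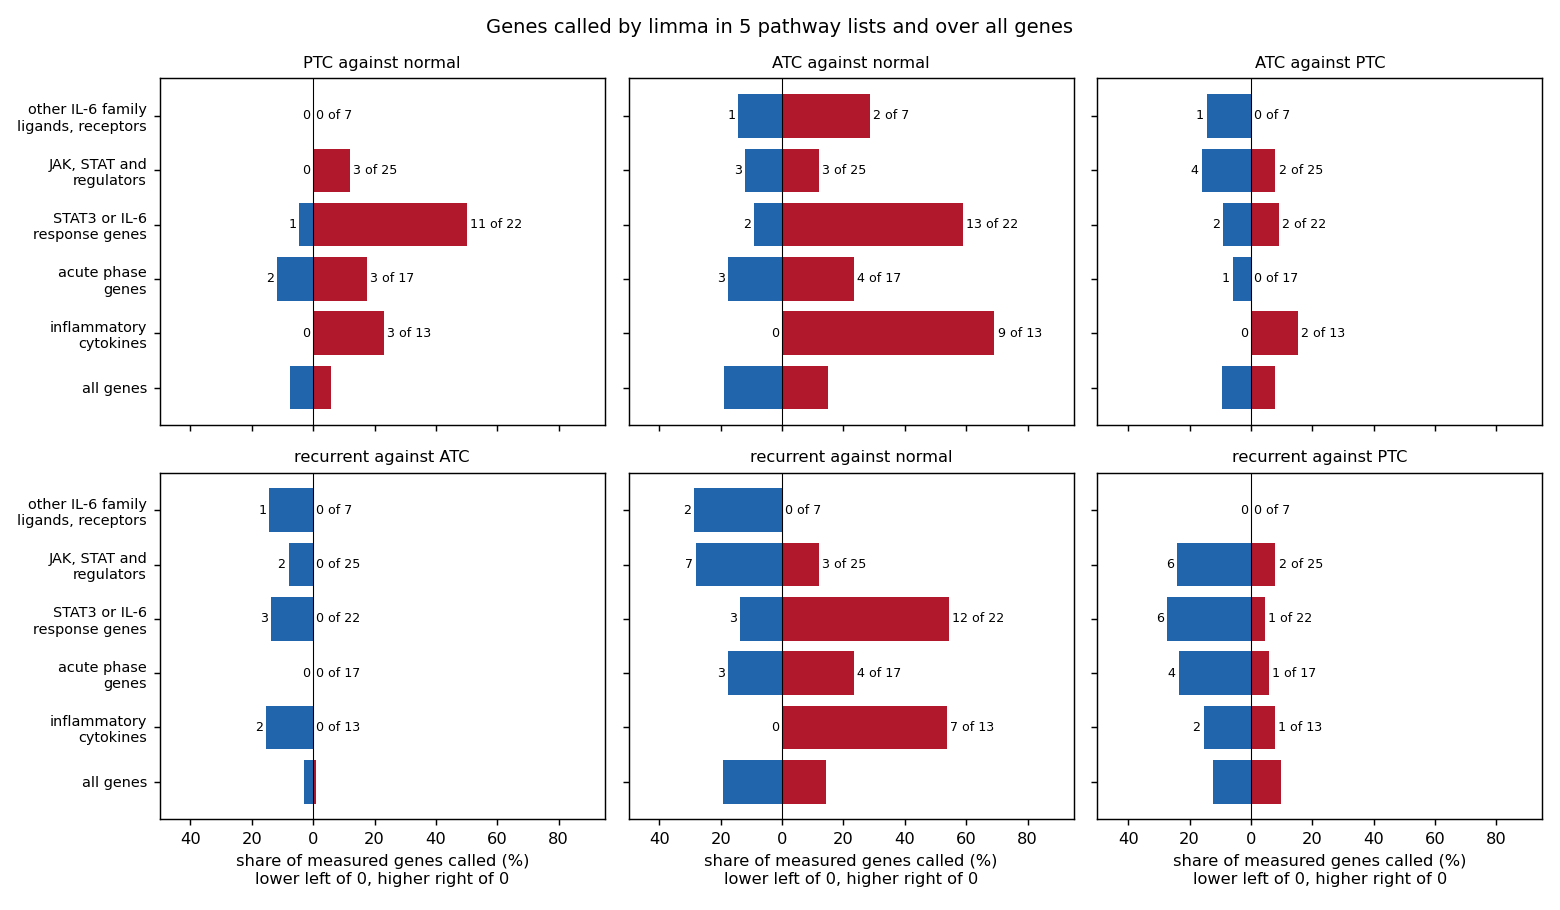
Share of measured genes called by limma (x axis, percent; lower to the left, higher to the right) in 5 pathway lists and over all 12393 genes (y axis), in 6 comparisons, with 1 probe set per gene; numbers beside the bars count the genes. In ATC against normal glands 9 of 13 inflammatory cytokines and 13 of 22 STAT3 response genes are higher, and Janus kinase and STAT genes stay near the share of all genes.

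Among the 9 recurrent tumours the ligands varied widely enough to be set against Socs3, and 3 such relations were computed. Il6 and Socs3 had a Pearson r of 0.58 (exact permutation p = 0.11, adjusted 0.11) and a Spearman rho of 0.88 (exact permutation p = 0.00308, adjusted 0.00923). Il11 and Socs3 had r = 0.65 (exact permutation p = 0.0559, adjusted 0.11) and rho = 0.83 (exact permutation p = 0.00827, adjusted 0.0124). Lif and Socs3 had r = 0.61 (exact permutation p = 0.0758, adjusted 0.11) and rho = 0.60 (exact permutation p = 0.0968, adjusted 0.0968). By rank, the tumours with more Il6 and Il11 thus had more Socs3, and the linear relations did not pass. Within the 6 bare-number arrays r was 0.62 for Il6, 0.61 for Il11 and 0.85 for Lif, with exact permutation p of 0.204, 0.224 and 0.0542, and rho was 0.83, 0.77 and 0.94 (adjusted exact permutation p = 0.0875, 0.103 and 0.05). JK titles hold 3 recurrent arrays, too few for a value. Without the 2 arrays farthest from the median ligand level (recurrent 2 and 9 for Il6 and Il11) r was 0.58 for Il6 and 0.65 for Il11, but the rank relations no longer passed (rho 0.86 and 0.75, adjusted exact permutation p = 0.0714 and 0.0881). For Lif, without recurrent 1 and 9, r was 0.73 (exact permutation p = 0.0732). Without recurrent 2 alone the rank relations of Il6 and Il11 passed (rho 0.88 and 0.81, adjusted exact permutation p = 0.0217 and 0.0327). That of Lif did not (rho 0.64, adjusted exact permutation p = 0.0962), nor did any linear relation (adjusted exact permutation p = 0.15 each). Recurrent 6, with the lowest Socs3, also had the lowest macrophage mean of the 24 arrays (-2.02), and the part of cell content in these relations was not tested.

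**Figure D4:**
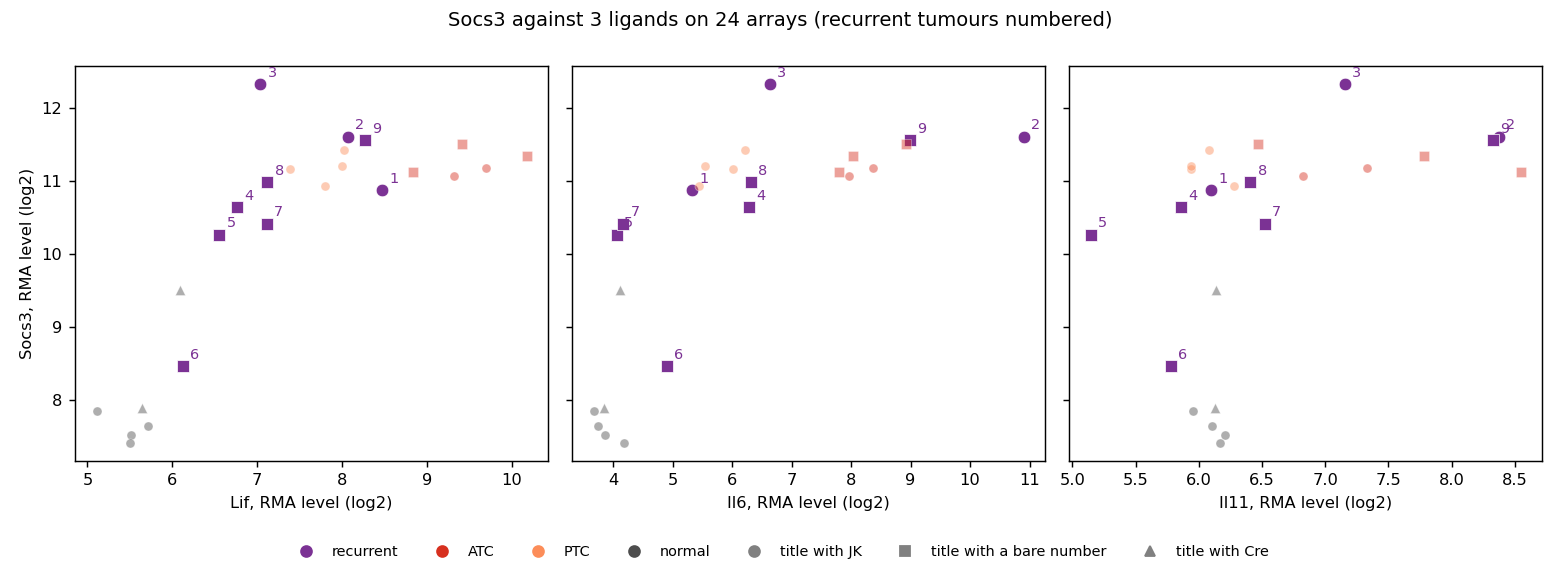
Socs3 (y axis) against Lif, Il6 and Il11 (x axes), all as log2 RMA levels, on 24 arrays, with the recurrent tumours numbered. Recurrent 6 has the lowest Socs3 of the tumours (8.47), and ATC arrays (8.84 to 10.18 for Lif) share a Socs3 level near that of PTC while their Lif is higher.

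The genes most like each measured member across the 24 arrays were taken by the smallest mean absolute difference after each gene was centred on its own mean. For Lif they were Pdlim7 (0.53), F2r (0.54) and Ppp1r18 (0.55), where the mean absolute deviation of Lif itself was 1.22. Il6 was nearest to Plaur (0.60), Inhba (0.66) and Fosl1 (0.66), with a deviation of its own of 1.65. Socs3 was nearest to Runx1 (0.46), Ccn1 (0.47) and Fxyd5 (0.47), against 1.28. Lifr was nearest to Nr1d2 (0.35), Rmdn1 (0.38) and Ctsf (0.38), against 0.94. Il11 was nearest to Prmt6, Speer4a and Utp4 (0.37 to 0.39, against 0.70), Osmr to Vmp1, Arf6 and Sat1 (0.46 to 0.47, against 0.67) and Stat3 to Hyal2, Cln6 and Nkiras2 (0.19 to 0.20, against 0.31). Il6st was nearest to Phlda3 (0.25), Ctdsp1 (0.26) and Snapc5 (0.26), against 0.38.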

How the data were processed

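The authors deposited log2 intensities of 22690 probe sets, processed with RMA in Partek per the submitters' processing notes, with versions not given in the sources used here. RMA corrects background, equalizes the distributions of arrays and summarizes probes, so a change shared by most genes is lost. Symbols came from the platform annotation, updated by gene identifier to RefSeq for 20351 of 20380 tested probe sets with 1 symbol; another 691 list several symbols and name no gene. Without 64 control probe sets, limma 3.58.1 (R 4.3.3) fitted 4 group means to 22626 probe sets on 24 arrays, with Benjamini-Hochberg adjustment over all of them and a threshold of 0.05. Lists, relations and likeness use a gene's probe set with the highest mean. No 2 of the 276 pairs of arrays held identical values (0 pairs; highest correlation 0.993).

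The members, the 5 pathway lists and the 11 marker lists were chosen with earlier results of these data known. Genes named from a pathway list are among the up to 4 called ones with the largest difference in a comparison. Likeness is given for every measured member. Relations used two-sided exact permutation tests (SciPy 1.17.1, numpy 2.4.6, pandas 2.3.3, Python 3.11.15), matplotlib 3.10.9 drew the plots, and simulated data tested the fit. The simulation was a single run per comparison, with the spread of each group, independent probe sets and few changed ones. In it, unchanged probe sets made up 22.7% of the calls in recurrent tumours against ATC. They made up 8.7% in recurrent tumours, 5.1% in ATC and 0.7% in PTC against normal glands. Against PTC they made up 6.2% in recurrent tumours and 2.8% in ATC. These shares depend on how many probe sets truly change, which is not known, so they do not give the share of false calls in the data. The threshold may be too lenient for recurrent tumours against ATC. Of simulated 2-fold changes 51% to 69% were found. Alternatives were 12 other settings and each array left out.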

Additional observations from a re-analysis of the deposited data

Results flagged for a closer look

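Of 72 groups of member values, 7 had 1 array standing apart from the rest by Dixon's criterion, and chance gives about 1 in 20. Normal 5, a Cre pool, accounted for 4 of them. It was the highest pool for Osmr (10.28 on the brighter probe set, next 9.03), for Socs3 on 2 probe sets (9.51, next 7.90, and 7.70, next 6.73) and for Stat3 on its brightest probe set (10.70, next 10.35). Its macrophage mean (-0.21) was the highest and its adipocyte mean (0.51) the lowest of the pools, whose other adipocyte means were 2.89 to 3.22. Among recurrent tumours, recurrent 6 was lowest for Socs3 on a second probe set (7.87, next 9.54) and recurrent 3 was lowest for Osmr on its brighter one (8.04, next 9.43). PTC 3 was highest for Il6st on its dimmest probe set (6.27, next 5.96).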

How the results depend on the processing

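No paired analysis was possible because the numbers given to arrays only name them and tie no arrays of different groups together. Counts of called members (of 8) kept within 1.5 times their value, in all 6 comparisons, with the filter on dim probe sets (15517 kept, 13 of the 18 of the members), with quantile normalization again, with centring on array medians and with a trended robust spread. A fit of the 2 groups alone called 8 members in ATC against normal, 7 in ATC against PTC and 0 in recurrent against PTC. Title kind as a block called 2 in recurrent against ATC and 1 in recurrent against PTC. JK arrays alone called 2 in recurrent against ATC. Arrays without JK alone called 3 in ATC against normal, 0 in recurrent against ATC and 1 in recurrent against normal. With 1 probe set per gene 4 were called in recurrent against normal and 2 in recurrent against PTC, and with the mean of probe sets 1 in ATC against PTC and 0 in recurrent against PTC. Array weights called 6 in ATC against PTC and 2 in recurrent against ATC. Tested against a 2-fold difference, limma called 2 in PTC against normal, 0 in ATC against PTC, 0 in recurrent against ATC, 2 in recurrent against normal and 0 in recurrent against PTC. Leaving out single arrays gave 5 to 5 in PTC against normal, 4 to 7 in ATC against normal, 3 to 3 in ATC against PTC, 1 to 2 in recurrent against ATC, 6 to 7 in recurrent against normal and 0 to 4 in recurrent against PTC. Over all probe sets limma called 2675 in PTC against normal, 7125 in ATC against normal, 3891 in ATC against PTC, 759 in recurrent against ATC, 7274 in recurrent against normal and 5087 in recurrent against PTC. The 2 groups alone gave 9355, 10687, 7908, 127, 5472 and 2760, array weights 10648, 13002, 11610, 2041, 10810 and 10239, and the test against 2-fold 165, 857, 235, 35, 620 and 275, in that order of comparisons. JK arrays alone gave 5096 in PTC against normal and 1345 in recurrent against ATC, and arrays without JK gave 1768 in ATC against normal, 65 in recurrent against ATC and 1371 in recurrent against normal. Leaving out single arrays moved these counts by over 1.5 times for recurrent against ATC (408 to 1237) and for comparisons with PTC without PTC 2 (1743 against normal, 2410 in ATC, 3305 in recurrent) or PTC 3 (1770 against normal). The relation with Socs3 passed for Lif (r = 0.70) and Il11 (r = 0.70) with the mean of probe sets, at an adjusted exact permutation p of 0.0445 each, and not for Il6 (r = 0.65, 0.0656). By rank Il6, Il11 and Lif passed with this setting (rho 0.93, 0.88 and 0.73, adjusted exact permutation p = 0.00225, 0.00461 and 0.0311). Of the genes named from the lists, Lcn2 reversed with arrays without JK alone, to -0.92 in ATC and -0.73 in recurrent tumours against normal. With arrays without JK alone, the differences named above from normal were not called for Clcf1, Ctf1, Serpina3n and Ptgs2 in ATC and for Ctf1, Jak2, Cish, Junb, Vegfa, Serpina3n and Ptgs2 in recurrent tumours (limma adjusted p 0.0564 to 0.443), nor that of Socs2 in recurrent tumours from ATC (0.14). Causes were not tested; fewer arrays enter the fits of 1 kind of title. Where both groups lie low, as for the dimmer Lif and Osmr probe sets, signal over background limits what a difference can show.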

Other observations

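Il6ra, the ligand-binding chain for IL-6, was described after its values were seen. It read 5.19 and 5.18 on recurrent 6 and 7 and 8.46 to 9.85 on the other 7 recurrent arrays, against 7.76 to 8.46 in ATC, 7.16 to 7.81 in PTC and 6.88 to 7.69 in normal pools. Those 7 recurrent arrays all lay above every pool, and the other 2 lay below every pool. Its difference from normal glands over all recurrent arrays was 0.98 ± 0.56 (limma adjusted p = 0.19). The second Il6ra probe set was dimmer and read 6.39 and 6.05 on recurrent 6 and 7 and 6.28 to 8.16 on the other recurrent arrays. Recurrent 6 and 7 also had the lowest Clcf1 of all arrays (5.69 and 5.91) and the lowest macrophage means of the recurrent arrays (-2.02 and -0.585), and their part in these levels was not tested.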
